A study of Mus musculus with 4 samples.

Results

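ZBTB proteins carry a BTB domain at one end and zinc fingers at the other. The zinc fingers bind DNA. The BTB domain lets the protein form dimers and recruits corepressors such as NCOR1 and BCOR with histone deacetylases, or the ubiquitin ligase scaffold CUL3. Most members studied in detail repress transcription, and several direct lineage choice in lymphocytes, among them Zbtb7b (ThPOK) in CD4 T cells and Zbtb16 (PLZF) in NKT cells. The genes described here were those whose symbol is Zbtb followed by a digit, which were 42 of the 24087 genes measured. Of these, 40 encode BTB zinc finger proteins. Zbtb8os and Zbtb11os1 are named only for the neighbour on whose other strand they lie, and were kept because the symbol rule takes them.

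The question was how these genes were expressed in Treg cells that lack Setd2, the methyltransferase that places H3K36me3. RNA was sequenced from Treg cells of the spleen of C57BL/6 mice, taken as CD3+CD4+YFP+ cells by sorting, with 2 libraries from Foxp3Cre-YFPSetd2f/f mice (KO 1 and KO 2) and 2 from Foxp3Cre-YFPSetd2f/+ littermates (CTRL 1 and CTRL 2). Each library held about 1000000 cells, pooled from 2 mice by the deposited design text (the methods give a wider range), and mice in the study were 6 to 12 weeks old unless it stated otherwise. Cre was driven by Foxp3 in both groups, so the control Treg cells also carried 1 Setd2 allele that Cre could delete, and the YFP gate kept cells in which the Foxp3 locus was active.

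Setd2 itself stood at 23.4 and 25.3 FPKM (fragments per length of gene, scaled to the size of the library) in CTRL 1 and CTRL 2. It stood at 21.3 and 19.5 FPKM in KO 1 and KO 2. The KO libraries were the lower ones, but limma gave a log2 fold change of −0.24 ± 0.08 (SE) with an adjusted p of 0.0970, which missed the threshold of 0.05. The value covers the whole gene, and reads on the floxed exons were not analysed here. For mice of these genotypes, the paper reports loss of Setd2 protein in splenic Treg cells by flow cytometry. It also reports a strong drop of H3K36me3 in splenic and intestinal Treg cells by western blot. Libraries held at least 29984837 to 32683452 reads. CTRL 1, at the lower end of this range, had the most genes above 0 FPKM, at 19100. That number was 15913 for CTRL 2, 16410 for KO 1 and 16180 for KO 2. Why CTRL 1 stood apart was not tested, nor was its bearing on members with low values. Summed FPKM of 5 Treg markers, all found in every library, was 1068 to 1178. Markers of other cells were also present. The 10 dendritic and myeloid genes summed to 173 and 104 FPKM in CTRL 1 and CTRL 2. They summed to 239 and 86.2 FPKM in KO 1 and KO 2. Lyz2 alone was at 114, 71.9, 153 and 60.0 FPKM in the same order, beside 121, 140, 112 and 119 FPKM for Foxp3. The plasma cell list, some genes of which Treg cells also express, summed to 116, 92.1, 158 and 117 FPKM. Summed B cell markers (26.2, 21.8, 41.0 and 24.5 FPKM, same order) and erythroid markers (12.4, 2.22, 20.02 and 5.02 FPKM) were also highest in KO 1. In bulk RNA, fewer cells of a type and less RNA per cell cannot be told apart.

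The start regions of 4 members are shown first, being those of the 3 genes that were lower in KO and of Zbtb7b, the member with the highest level. Each is a RefSeq promoter window on GRCm38.p6, running 5′ to 3′ from 250 bases before to 50 bases after the start of transcription. The Zbtb6 and Zbtb7b windows lie inside the GENCODE spans of their genes (chr2:37425500-37443171 and chr3:89377644-89394776). Their starts are therefore not the outer 5′ ends of those spans. Capitals mark GGGCGG (the GC box bound by SP and KLF factors), CCAAT, and ACATCTG (a site known for ZBTB18), each searched on both strands, so that a GC box on the other strand reads CCGCCC. Overlapping matches run together.
Zbtb39, chr10:127739280-127739579, plus strand: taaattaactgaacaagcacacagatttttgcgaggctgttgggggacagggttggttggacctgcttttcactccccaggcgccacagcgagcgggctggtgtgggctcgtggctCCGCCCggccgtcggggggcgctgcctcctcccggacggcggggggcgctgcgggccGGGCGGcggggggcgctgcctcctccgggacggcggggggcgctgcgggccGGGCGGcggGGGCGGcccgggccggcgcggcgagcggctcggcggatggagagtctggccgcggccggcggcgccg
Zbtb6, chr2:37430870-37431169, minus strand: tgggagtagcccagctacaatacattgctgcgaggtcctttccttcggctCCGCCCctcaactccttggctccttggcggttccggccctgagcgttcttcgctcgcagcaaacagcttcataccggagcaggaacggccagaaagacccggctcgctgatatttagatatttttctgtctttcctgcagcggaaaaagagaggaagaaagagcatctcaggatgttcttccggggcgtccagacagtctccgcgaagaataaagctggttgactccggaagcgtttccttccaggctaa
Zbtb18, chr1:177442101-177442400, plus strand, the first of 5 windows for the gene: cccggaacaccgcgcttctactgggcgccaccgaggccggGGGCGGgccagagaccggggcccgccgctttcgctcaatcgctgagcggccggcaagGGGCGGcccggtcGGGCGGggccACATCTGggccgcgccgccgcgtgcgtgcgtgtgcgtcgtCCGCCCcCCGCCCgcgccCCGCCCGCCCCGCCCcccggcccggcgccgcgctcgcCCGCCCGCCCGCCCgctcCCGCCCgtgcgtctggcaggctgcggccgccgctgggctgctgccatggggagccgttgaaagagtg
Zbtb7b, chr3:89393329-89393628, minus strand, 1 of 2 windows for the gene: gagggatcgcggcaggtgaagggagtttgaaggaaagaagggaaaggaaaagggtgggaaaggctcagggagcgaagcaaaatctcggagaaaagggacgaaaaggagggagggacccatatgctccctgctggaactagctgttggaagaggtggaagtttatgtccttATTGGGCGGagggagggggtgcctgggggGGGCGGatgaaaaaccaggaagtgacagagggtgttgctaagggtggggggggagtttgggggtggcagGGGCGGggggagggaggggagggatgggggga
The windows differed in composition, with 77% G and C for Zbtb39, 54.3% for Zbtb6, 81.7% for Zbtb18 and 59.7% for Zbtb7b. GC boxes numbered 4, 1, 12 and 3 in the same order. In the Zbtb7b window, 1 CCAAT match on the other strand shares bases with a GC box. The other 4 windows of Zbtb18 lie within its span and were poor in CpG, with 38.3% to 43.7% G and C, 1 to 3 CpG and no GC box. ACATCTG lay in the printed window of Zbtb18 and in 1 of the other 4, which says only that these letters are there.

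Across the family, start regions were rich in CpG. RefSeq gave 50 windows for 37 of the 42 members. Their median content was 64.3% G and C with 24.5 CpG, against 52.7% and 7.0 CpG over 32851 windows of all genes. The 7 windows of the 3 genes lower in KO, of which 5 belong to Zbtb18, had medians of 43.7% and 3.0 CpG. A GC box was in 34 of the 50 member windows (68.0%) and in 35.7% of all windows. CCAAT and TATAAA stood nearer to the level of all windows, in 32% against 37.4% and in 12% against 13.6%. The ETS motif CCGGAAGT was in 8.0% against 3.89%, which rests on 4 member windows. Sites known for 2 members themselves were in few of the family's windows. The ZBTB33 site TCCTGCNA was in 8.0% against 4.96%, which rests on 4 member windows of 2 genes. The ZBTB18 site ACATCTG was in 6.0% against 4.43%, which rests on 3 member windows of 2 genes. For each site, most of those member windows belong to Zbtb18. All values of this paragraph describe windows, several of which belong to the same gene, and were not tested.

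Of the 42 members, 37 had at least 1 FPKM in at least 2 libraries and were tested. Their levels spanned from 0.721 FPKM (Zbtb26 in KO 1) to 79.1 FPKM, and Zbtb7b, which commits thymocytes to the CD4 lineage and keeps CD8 genes off in CD4 T cells, led in every library. It stood at 69.4 and 73.6 FPKM in the CTRL libraries and at 68.5 and 79.1 FPKM in the KO libraries, and made up 16.6% to 18.9% of the family's summed FPKM. Next came Zbtb8os, one of the genes that encode no BTB protein, at 32.2 to 36.4 FPKM, and then Zbtb7a (LRF), a close relative of Zbtb7b, at 23.9 to 29.2 FPKM. Each of these was above the next gene in every library. Zbtb25 at 21.6 to 23.3 FPKM and Zbtb1 at 18.4 to 22.2 FPKM, neighbours that point away from each other on chromosome 12, could not be ordered, since their ranges overlap. The next 11 members down to Zbtb48 had means from 9.37 to 17.1 FPKM, and the ranges of neighbours in that order overlapped except between Zbtb22 and Zbtb45. In all, 15 or 16 members were above 10 FPKM in each library. Summed FPKM of the family was nearly constant, at 414 and 420 in CTRL and 413 and 419 in KO.

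**Figure D1:**
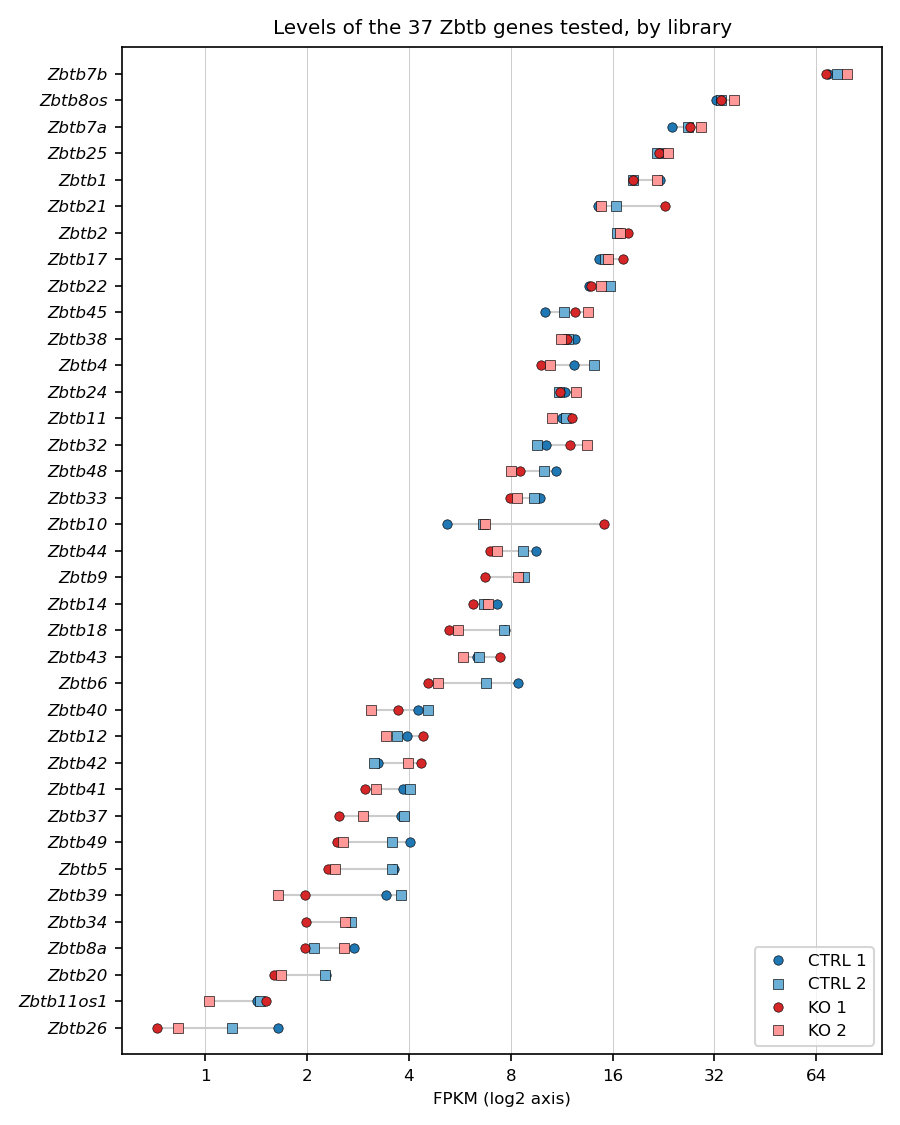
FPKM (log2 axis) of the 37 Zbtb genes tested, from the highest mean to the lowest, with 1 point per library and a grey line over the range. Zbtb7b stands alone at 68.5 to 79.1 FPKM, and the KO points lie left of the CTRL points mostly in the lower part of the plot.

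The other 5 members were too low to test. Zbtb16 (PLZF), which drives NKT cell development, was at 0.0775 and 0.0678 FPKM in CTRL and 0.0775 and 0.0496 FPKM in KO, on at least 9 to 14 reads per library. Zbtb46, a marker of classical dendritic cells, was at 0.603 and 0.519 FPKM in CTRL and 0.985 and 0.761 FPKM in KO. It was highest in KO 1, which also had the highest dendritic and myeloid sum (above). KO 2 had the lowest sum and was above both CTRL libraries for Zbtb46. Single dendritic genes went both ways. Xcr1 was at 0.863 and 0.622 FPKM in CTRL and 1.35 and 1.10 FPKM in KO. Clec9a was at 0.287 and 0.210 FPKM in CTRL and 0.129 and 0.111 FPKM in KO. Flt3 and Itgax were highest in CTRL 1. The part of other cells in the Zbtb46 values was not tested. Zbtb3 was at 0.451 to 0.667 FPKM, Zbtb8b at 0.0172 to 0.0742 FPKM, and Zbtb7c was listed at 0 in KO 1 and at up to 0.0126 FPKM elsewhere.

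In KO Treg cells, 3 of the 37 members tested were lower and 0 were higher by limma, and many others stood below CTRL without passing the test. The 3 were Zbtb39, Zbtb6 and Zbtb18, which is 8.11% of the members, where 4.65% of all 11399 genes tested were called lower and 5.1% higher. At an unadjusted p under 0.05, 14 members (37.8%) were lower and 3 (8.11%) higher, against 18.4% and 16.3% of all genes. For 17 members both KO values were below both CTRL values (45.9%, against 35.5% of all genes), and for 7 they were above them (18.9%, against 29.0%). The libraries overlapped for 13. The median log2 fold change of the members was −0.07, and that of all genes tested was −0.02.

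**Figure D2:**
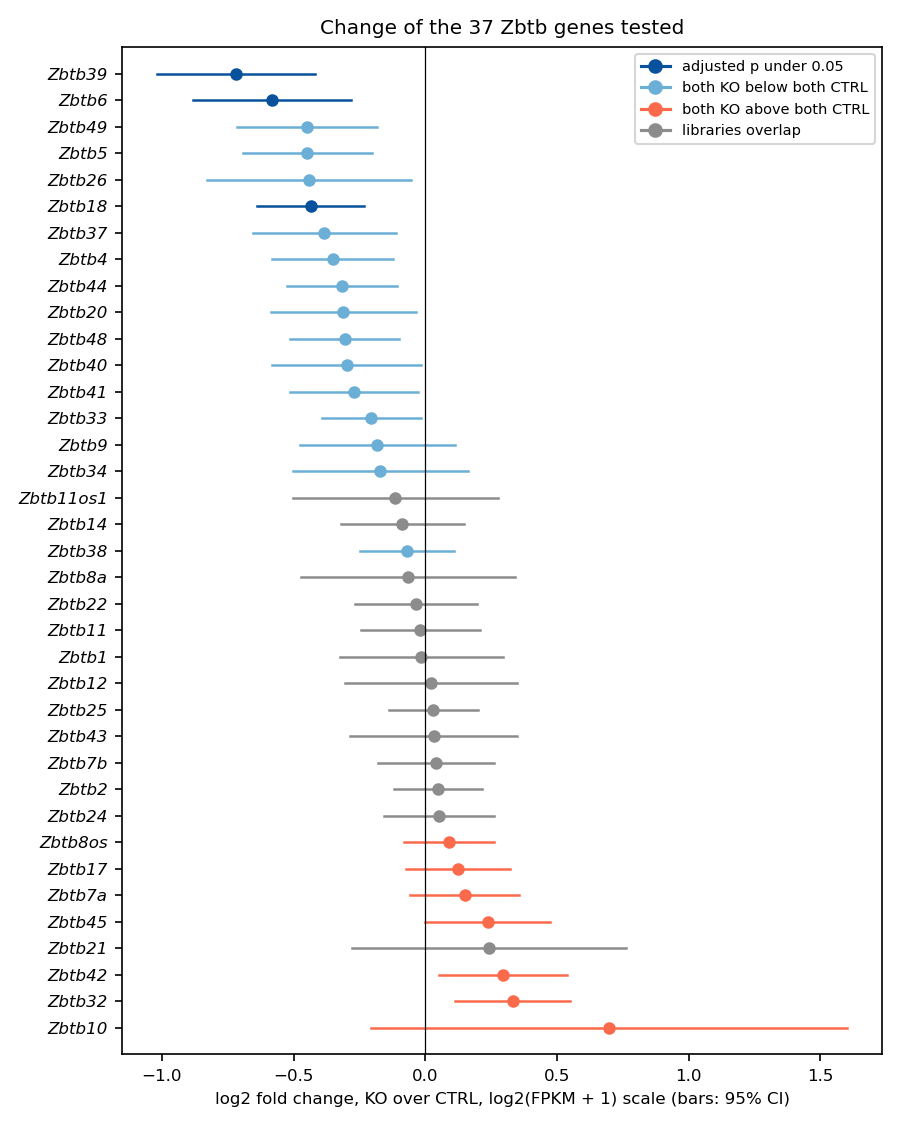
Log2 fold change of KO over CTRL for the 37 Zbtb genes tested, on the log2(FPKM + 1) scale with 95% confidence intervals from limma, ordered by value. Dark blue points passed the adjusted threshold, light blue and red points are genes whose KO libraries were both below or both above CTRL, and grey points are genes whose libraries overlap. The 3 dark blue points lie between −0.72 and −0.43.

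Zbtb39 had the lowest fold change of the family. It was at 3.42 and 3.80 FPKM in CTRL, against 1.97 and 1.64 FPKM in KO, on at least 347 reads in the lowest library. The KO libraries were far below the CTRL libraries, with means of 1.80 ± 0.23 and 3.61 ± 0.27 FPKM (SD, n = 2). The log2 fold change was −0.72 ± 0.12 (SE), with an adjusted p of 0.0379. The gene (ENSMUSG00000044617) lies at chr10:127739538-127747349 on the plus strand, and 1.2% of its exon bases overlap Gpr182 on the other strand.

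Zbtb6 was at 8.38 and 6.77 FPKM in CTRL, against 4.55 and 4.86 FPKM in KO. The CTRL libraries differed from each other by more than the KO libraries did, but both were higher than either. The log2 fold change was −0.58 ± 0.12 (SE), with an adjusted p of 0.0467. Its gene (ENSMUSG00000066798, chr2:37425500-37443171, minus strand) shares 449 exon bases, 8.8% of its own, with Zbtb26 on the same strand, and reads there cannot be assigned to one of them. Zbtb26, named here after its values were seen, was also lower in both KO libraries, at 1.64 and 1.2 FPKM in CTRL and 0.721 and 0.830 FPKM in KO, and did not pass the test (adjusted p 0.112).

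Zbtb18 (RP58), a repressor known from the development of cortical neurons, was at 7.70 and 7.66 FPKM in CTRL, against 5.25 and 5.60 FPKM in KO. Within each group the libraries were close, and the groups were well apart. The log2 fold change was −0.43 ± 0.08 (SE), with an adjusted p of 0.0414. The gene is ENSMUSG00000063659, at chr1:177442351-177450764 on the plus strand.

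These calls sat near the threshold. With a trend of exon length removed from each library, or with quantile normalization, 1 member (Zbtb39) was called lower, which is no more than the share of all genes called lower there (2.75% and 4.2%). With limma-voom on the reads recovered from the FPKM values, 10 were called lower and 0 higher, the 3 and Zbtb4, Zbtb5, Zbtb26, Zbtb37, Zbtb41, Zbtb44 and Zbtb49, where 9.01% of all genes were called lower. With 1 library left out, whether CTRL 1, CTRL 2, KO 1 or KO 2, none of the 37 passed, the adjusted p of the 3 genes was 0.115 to 0.158, and limma called at most 1 of all genes in either direction.

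**Figure D3:**
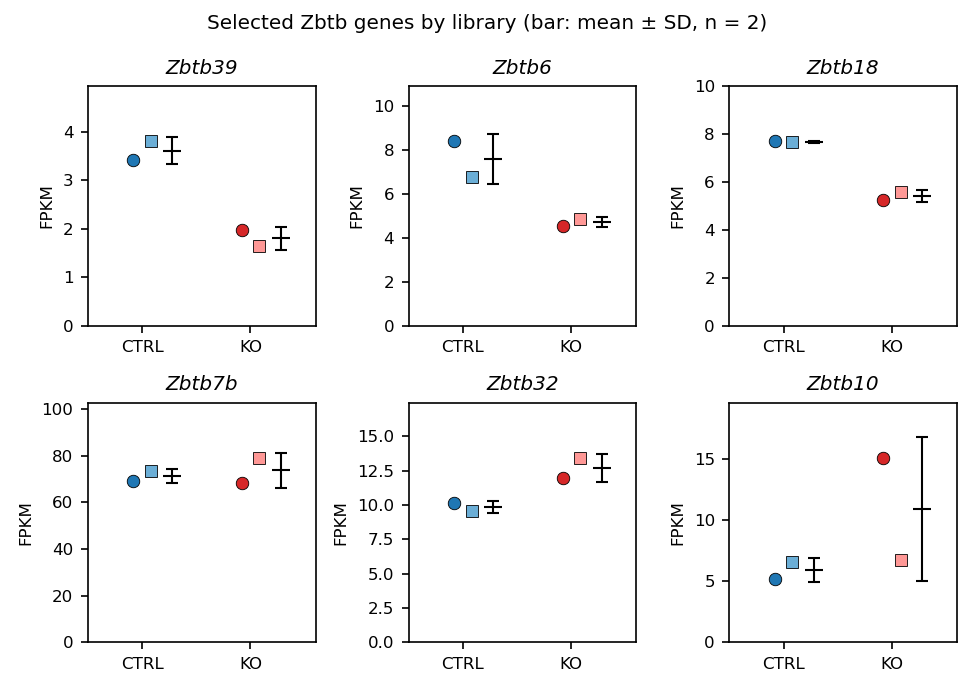
FPKM of 6 Zbtb genes in each library (circles, libraries numbered 1; squares, libraries numbered 2), with the mean and SD of each group (n = 2) to the right of the points. KO lies below CTRL for Zbtb39, Zbtb6 and Zbtb18, the groups overlap for Zbtb7b, and the high KO mean of Zbtb10 comes with 1 library at 15.1 FPKM.

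Below the called genes came a run of members with similar differences. Zbtb49 was at 4.03 and 3.56 FPKM in CTRL and 2.46 and 2.56 FPKM in KO, with a log2 fold change of −0.45 ± 0.10 (SE) and an adjusted p of 0.0569. Zbtb5, a repressor of the cell cycle inhibitor gene Cdkn1a, was at 3.61 and 3.57 FPKM in CTRL and 2.31 and 2.43 FPKM in KO, with an adjusted p of 0.0509. In both genes the KO libraries were clearly the lower ones, and neither passed the test. Zbtb5 was named after its values were seen, and 13.0% of its exon bases overlap an antisense gene. The strand setting of the counting was not given in the sources used here.

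None of the members known in lymphocytes passed the test. Of the 10 on that list 8 were tested, and limma called 0 in either direction, as did limma-voom on the recovered reads. Of all genes, limma called 5.1% higher and 4.65% lower, so 0 of 8 says little about this list. At an unadjusted p under 0.05, 1 was higher (Zbtb32) and 1 lower (Zbtb20), 12.5% each, against 16.3% and 18.4% of all genes. In 1 of the 8 both KO libraries were below CTRL (12.5%, against 35.5% of all genes). Both were above in 3 (37.5%, against 29.0%), and in 4 the libraries overlapped. The median log2 fold change was 0.05. Zbtb7b overlapped between the groups, and its log2 fold change was 0.04 ± 0.09 (SE), with an adjusted p of 0.765 and a 95% interval from −0.18 to 0.26. Its sign turned with quantile normalization, to −0.04. Zbtb7a was at 23.9 and 26.7 FPKM in CTRL, against 27.1 and 29.2 FPKM in KO. The KO libraries were just above, with a log2 fold change of 0.15 ± 0.08 (SE) and an adjusted p of 0.250.

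Zbtb32 (ROG, PLZP), a repressor that restrains cytokine production and proliferation in activated T cells, had the smallest adjusted p of this list. It was at 10.2 and 9.56 FPKM in CTRL, against 11.95 and 13.4 FPKM in KO. Both KO libraries were above both CTRL libraries, and the log2 fold change of 0.33 ± 0.09 (SE) did not pass the test (adjusted p 0.0677). Zbtb20, which supports long-lived plasma cells and represses fetal genes in liver, was at 2.28 and 2.26 FPKM in CTRL, against 1.59 and 1.68 FPKM in KO. Here the groups were apart in the other direction, with a log2 fold change of −0.31 ± 0.11 (SE) and an adjusted p of 0.114.

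The remaining 4 tested genes of the list moved by less. Zbtb17 (Miz-1), the partner through which Myc represses genes, was at 14.6 and 15.2 FPKM in CTRL and 17.2 and 15.5 FPKM in KO, with a log2 fold change of 0.13 ± 0.08 (SE) and an adjusted p of 0.308. Zbtb1, which lymphoid progenitors need, was at 22.2 and 18.4 FPKM in CTRL and 18.4 and 21.7 FPKM in KO, with a log2 fold change of −0.015 ± 0.12 (SE) and an adjusted p of 0.940. Its libraries differed far more within each group than the group means of 20.3 and 20.05 FPKM did, and the sign of the change turned with the scaling, to 0.003 with median-ratio scaling. Zbtb25 had a log2 fold change of 0.03 ± 0.07 (SE), with an adjusted p of 0.771. Zbtb24, the gene mutated in one form of ICF syndrome, had one of 0.05 ± 0.08 (SE), with an adjusted p of 0.682. Both overlapped between the groups.

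The 3 members that bind methylated CpG, Zbtb33 (Kaiso), Zbtb4 and Zbtb38, all had both KO libraries below both CTRL libraries, and 0 of the 3 passed the test. Of all genes, 35.5% had both KO libraries below. Zbtb4 was at 12.3 and 14.1 FPKM in CTRL, against 9.85 and 10.4 FPKM in KO. Zbtb33 was at 9.74 and 9.37 FPKM in CTRL, against 7.97 and 8.35 FPKM in KO. For Zbtb38 the gap was small, from 12.4 and 11.8 FPKM in CTRL to 11.8 and 11.2 FPKM in KO, and its log2 fold change of −0.07 became 0.02 with the length trend removed. The adjusted p was 0.0670 for Zbtb4, 0.123 for Zbtb33 and 0.528 for Zbtb38. At an unadjusted p under 0.05, 2 of the 3 were lower (18.4% of all genes), and limma-voom called 1 of them lower (Zbtb4).

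Of the 4 members tied to telomeres or genome upkeep, 2 were below CTRL in both KO libraries (35.5% of all genes) and 0 passed the test, with limma or with limma-voom. At an unadjusted p under 0.05, 2 were lower and 0 higher (18.4% and 16.3% of all genes). Zbtb48 (TZAP), which binds telomere repeats and favours their trimming, was at 10.9 and 10.0 FPKM in CTRL and 8.54 and 8.01 FPKM in KO. Zbtb40 was at 4.25 and 4.55 FPKM in CTRL and 3.71 and 3.10 FPKM in KO. Zbtb43 overlapped between the groups, at 5.77 to 7.42 FPKM.

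Zbtb10, which binds variant telomere repeats, had the highest fold change of the family, and it rested on 1 library. It was at 5.20 and 6.60 FPKM in CTRL, at 15.1 FPKM in KO 1 and at 6.73 FPKM in KO 2. KO 2 was barely above CTRL 2, while KO 1 stood far from the other 3. The log2 fold change was 0.70 ± 0.35 (SE) with an adjusted p of 0.227, and it was 0.17 without KO 1, 1.23 without KO 2, 0.55 without CTRL 1 and 0.85 without CTRL 2. Zbtb21, named here because it showed the same library, was at 14.5 and 16.4 FPKM in CTRL, against 22.9 and 14.8 FPKM in KO, and its log2 fold change of 0.24 became −0.054 without KO 1. KO 1 also had the highest summed myeloid, B cell and erythroid markers (above). CTRL 1 was next highest in each of these sums and had the lowest values of Zbtb10 and Zbtb21. The part of other cells in the values of Zbtb10 and Zbtb21 was not tested. Zbtb42, the third of the highest fold changes, did not share this pattern. It was at 3.24 and 3.15 FPKM in CTRL, against 4.34 and 3.97 FPKM in KO, with a log2 fold change of 0.30 ± 0.09 (SE) and an adjusted p of 0.1001.

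The other 22 tested members were a mixed group with no role list of their own, and they held all 3 of the genes called lower. Both KO libraries were below CTRL for 11 of them (50%, against 35.5% of all genes), above for 3 (13.6%, against 29.0%), and overlapping for 8. Besides those named, Zbtb37, Zbtb41, Zbtb44, Zbtb9 and Zbtb34 were below in both KO libraries, and Zbtb45 and Zbtb8os were above. Zbtb2, Zbtb8a, Zbtb11, Zbtb11os1, Zbtb12, Zbtb14 and Zbtb22 overlapped. For Zbtb9, 84.4% of exon bases are shared with Ggnbp1 on the same strand, and for Zbtb37, 15.6% with Serpinc1 on the other.

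Members below CTRL differed from the rest in 2 properties that the symbol rule did not use. Their median exon length (GENCODE, all exons of a gene joined) was 8117 bases, against 4210 bases for members above CTRL and 5123 bases for those that overlapped. Their median level was 3.90 FPKM, against 11.9 and 11.6 FPKM. Length ran with the fold change over all genes as well. The median log2 fold change of all genes with exons under 3000 bases was 0.05, and that of all genes with 6000 bases or more was −0.09. Among the 17 members of 6000 bases or more the median was −0.27, and 9 of them (52.9%) were lower at an unadjusted p under 0.05, against 25.6% of all genes of that length. Among the 15 members from 3000 to 6000 bases, which include Zbtb39 and Zbtb6, the median was 0.03, and 5 (33.3%) were lower at that p, against 16.7% of all genes of that length. The 5 members under 3000 bases had a median of −0.034, and 0 of them were lower at that p, against 13.8%. Pearson's r between log2 exon length and log2 fold change was −0.295 over the 37 members and −0.093 over 11397 genes, as a description, since all points share the same 4 libraries. The part of length in the members' differences was not tested beyond the removal of its trend given above, and that of level was not tested.

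**Figure D4:**
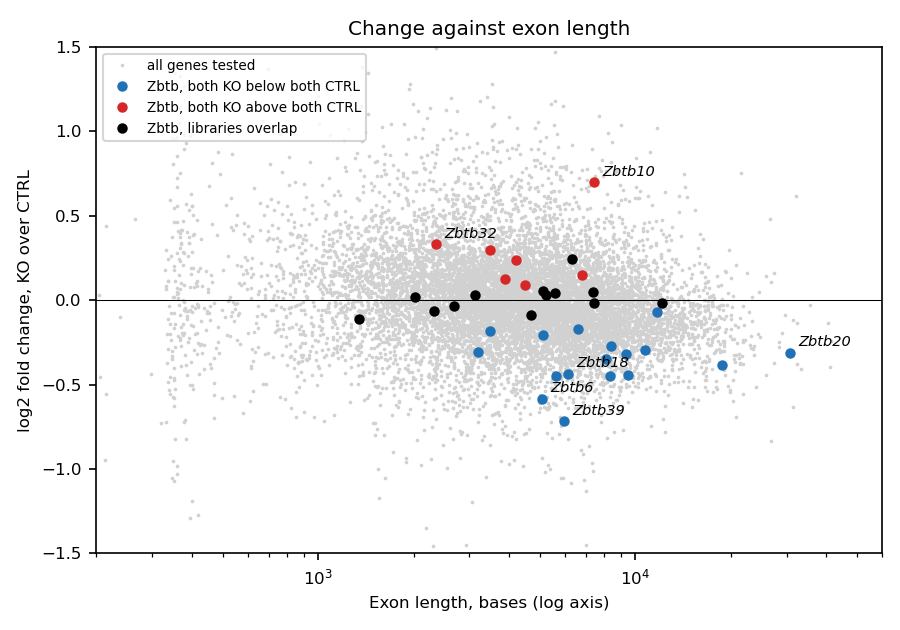
Log2 fold change of KO over CTRL against exon length in bases (log axis) for the Zbtb genes tested, over 11163 genes tested in grey (234 lie outside the axes). Blue members had both KO libraries below both CTRL libraries, red members both above, black members overlapped. Blue points gather at the longer lengths, with Zbtb39, Zbtb6 and Zbtb18 between 5080 and 6138 bases.

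Zinc finger genes named Zfp and a number, most of which carry no BTB domain, were more often lower. Of 278 such genes tested, 40 (14.4%) were called lower and 1 higher, both KO libraries were below both CTRL libraries in 66.9%, and the median log2 fold change was −0.25, at a median exon length of 4732 bases. The ZBTB shares were 8.11% and 45.9%. The difference between the groups of genes was not tested.

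Partners and pathway genes of the family were read from lists of genes. Of 8 BTB zinc finger genes with other names, such as Bcl6 and Patz1, 6 were tested and 0 passed in either direction. Of 18 corepressor and CUL3 ligase genes, such as Ncor1, Bcor, Hdac3 and Cul3, all were tested and 0 passed. Of all genes, 5.1% were called higher and 4.65% lower. At an unadjusted p under 0.05, the first list had 1 higher and 1 lower (16.7% each), and the second 3 higher (16.7%) and 0 lower. Of all genes, 16.3% were higher and 18.4% lower at that p. With limma-voom each had 1 gene called higher, Mynn and Gps2, where 868 of 11398 genes were called higher. Of 14 genes tied to the choice between CD4 and CD8 fates, where Zbtb7b acts, 13 were tested, 1 was higher (5.1% of all genes) and 0 were lower. At an unadjusted p under 0.05, 3 were higher (23.1%, against 16.3% of all genes) and 1 lower (7.69%, against 18.4%). Limma-voom called 2 higher, Runx1 and Runx3. The 1 called by limma was Runx3, which represses Zbtb7b and Cd4 in CD8 T cells. It was at 22.0 and 24.4 FPKM in CTRL, against 30.1 and 32.7 FPKM in KO, so that the groups did not overlap. The log2 fold change was 0.42 ± 0.08 (SE), with an adjusted p of 0.0430.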

How the data were processed

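Poly(A) RNA of 2 CTRL and 2 KO libraries was sequenced with paired reads of 150 bp. The authors mapped reads to mm10 with HISAT2 (2.2.1) and counted them per gene with featureCounts (2.0.1), per their notes. Values were deposited as FPKM, so the study's edgeR (3.34.0) test on counts was not repeated. The gene lengths, annotation version and strand setting behind the FPKM were not given in the sources used here. Control columns, named WT and a number, were read as the CTRL libraries of that number.

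KO was compared with CTRL by limma (3.58.1, R 4.3.3) on log2(FPKM + 1), using eBayes with an intensity trend. A gene was tested when 2 or more libraries reached 1 FPKM, which left 11399 genes. Two-sided p values were used, with Benjamini-Hochberg adjustment over all genes tested and a threshold of 0.05. Fold changes on this scale understate the changes of low genes. With 2 pooled libraries a group, p sets the difference against the spread between pools, with variance information shared across genes by eBayes. The spread between single mice was not measured. The script was tested on simulated data. Low FPKM values stood in whole-number ratios (tolerance 0.002) for 19887 of 19888 genes above 0, a share of 99.995%, from which lower bounds of the reads per gene were taken. These counts were used in limma-voom as an alternative, and no common factor of a gene's 4 counts could be seen in them. Positions and exon lengths came from GENCODE vM21 (GRCm38), and promoter windows from RefSeq (GRCm38.p6).

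Fold changes were given for members past the threshold, tested members of the lymphocyte list, and the 3 highest and 3 lowest. The members and lists were chosen with earlier results of these data known. Alternatives were 11 settings of filter, scaling, model and length, and each library left out in turn. One gene of the corepressor list is not reported here.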

Additional observations from a re-analysis of the deposited data

How the results depend on the processing

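The count of members called higher was 0 in every setting tried. The count called lower was 3, and it was 0 with no filter on low values (where limma also called 0 of all genes), 1 with quantile normalization, 1 with the exon length trend removed, 5 with the replicate number as a replicate block, and 10 with limma-voom on the recovered reads, which called 1027 of all genes lower. It was 0 to 0 with each library left out. The median log2 fold change of the members, −0.069, was −0.037 with no filter, 0.008 when either group had to average over 5 FPKM (24 members tested), −0.044 with quantile normalization, −0.095 with limma-voom, and −0.141 to −0.038 with each library left out. Among the members given a fold change by the rule, signs turned for Zbtb1 (0.003 with median-ratio scaling, 0.08 with the length trend removed) and Zbtb7b (−0.044 with quantile normalization). They also turned for Zbtb11, Zbtb12 and Zbtb38. With each library left out, Zbtb1 ran from −0.141 to 0.111, Zbtb7b from −0.061 to 0.145, Zbtb25 from −0.009 to 0.072 and Zbtb24 from −0.02 to 0.126. The cause of these shifts was not tested, apart from the fewer samples or genes that some settings leave. Zbtb39 was called lower in 9 of 10 settings that tested it with all libraries, Zbtb18 in 8 of 11, Zbtb6 in 7 of 11 and Zbtb5 in 5 of 10.

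The labels tie no replicate number to a litter or day, and by the labels the libraries share only a number. In the values, both libraries numbered 1 were above both numbered 2 in summed myeloid, B cell and erythroid markers. The other marker lists did not show this order. What libraries of the same number had in common was not tested. Around the group means, libraries of the same number deviated with Pearson's r of 0.342 and Spearman's rho of 0.0553 over 11399 genes. The replicate block added Zbtb4 and Zbtb5 to the 3 genes. The recovered reads are lower bounds, so no counting interval is given.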
